A study of Homo sapiens with 16 samples.

Results

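Joint retention of 2 or more *EIF4G2* introns was examined within single nanopore reads of RT-PCR amplicons. A read was selected when it listed exactly introns 15 to 20 (NT, long and long_alt) or exactly introns 15 to 18 (short_1 and short_1_alt), with each of these introns either excised or retained and at least 2 of them retained. The jointly retained reads were therefore chosen by the retention statuses themselves. How often introns were retained is given as a description. Tests of these shares compare libraries, and do not separate joint retention from more frequent retention of single introns. They numbered 26428 of the 272298 reads that had a complete set of excised or retained introns (9.71%), in 10 libraries. They occupied 155 of the 3269 rows of counts in the 16 libraries of the series and fell into 31 distinct combinations of retained introns. No combination was left out for a low count. Short_1 and short_1_alt contributed 23534 of these reads, and NT, long and long_alt contributed 2894.

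Cells of the HEK293T line, which derives from human embryonic kidney and is easily transfected, were left non-transfected (NT) or transfected for a day with a minigene, and 2 biological replicates of each condition were sequenced. The long minigene carries introns 15 to 20 under the cytomegalovirus promoter, short_1 carries introns 15 to 18 and ends in exon 19, and long_alt and short_1_alt carry in addition the alternative allele at the 3′ end of intron 17. NT amplicons came from the endogenous gene, which all transfected cells also have, whereas minigene amplicons were started from a primer in the plasmid. The reverse primer lay in exon 19 for the short minigenes (short_1 and short_1_alt) and in exon 21 for the other conditions, so that amplicon length and architecture cannot be told apart.

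*EIF4G2* encodes a translation initiation factor of the eIF4G family, also known as DAP5 or NAT1, that lacks the region with which other members bind the cap-binding protein. The spliceosome removes an intron after recognition of its 5′ splice site, branch point and 3′ splice site, and the introns of a transcript need not be removed in the order in which they are made. A read that crosses several introns records which of them were still present together in the same molecule.

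All 6 introns lie between coding exons on the minus strand of chromosome 11 (GRCh38, GENCODE annotation). Intron 15 is 126 nt long (from 10800836 to 10800961) and intron 16 is 83 nt long (from 10800648 to 10800730). Intron 17 is also 83 nt long (from 10800349 to 10800431). Intron 18, the longest, has 333 nt (from 10799757 to 10800089). Intron 19 has 127 nt (from 10799425 to 10799551) and intron 20 has 99 nt (from 10799114 to 10799212). A read that kept introns 17 and 18 was thus 416 nt longer than the spliced product, and a read that kept introns 15 to 18 was 625 nt longer. The splice sites of these introns in the reference genome are shown because the statuses of every read refer to them. Each line gives, from 5′ to 3′, the last 3 nt of the exon and the first 6 nt of the intron for the 5′ splice site, or the last 20 nt of the intron and the first 3 nt of the exon for the 3′ splice site, with the terminal dinucleotide of the intron in capitals.
Intron 15 5′ splice site: cagGTacag
Intron 15 3′ splice site: tgtcattgcttgttttttAGaca
Intron 16 5′ splice site: actGTaagt
Intron 16 3′ splice site: gatacttgtgttcttcacAGgaa
Intron 17 5′ splice site: cagGTagga
Intron 17 3′ splice site: tgttgtatatttctttcaAGgct
Intron 18 5′ splice site: cagGTaaga
Intron 18 3′ splice site: aggtggctttgtctcttcAGaaa
Intron 19 5′ splice site: tagGTaaga
Intron 19 3′ splice site: caagacctctttctgtccAGctt
Intron 20 5′ splice site: aagGTgaga
Intron 20 3′ splice site: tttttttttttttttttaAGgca
All 6 introns have the GT and AG ends of the major class. Pyrimidines made up 12 to 17 of the last 20 nt of each intron, the most in intron 20.

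The libraries held 18552 to 37104 reads with every listed intron excised or retained. Reads with an undetermined status (0.339% to 2.53% of the reads that listed exactly the expected introns) and reads with a skipped splice site were not among them. Skipped reads made up 11.9% to 19.2% in long and long_alt and 1.30% to 2.14% in the other libraries. Without molecular identifiers on the reads, intervals from their numbers cover counting error only, and PCR can favour shorter products. The 95% Wilson intervals of the shares given next did not overlap between the replicates of any minigene, and each library was given equal weight.

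In the amplicons, joint retention was a small class of reads when introns 19 and 20 were in the transcript and a large one without them. In NT, 1.58% of reads (376 of 23811) in replicate 1 and 1.45% (395 of 27275) in replicate 2 kept 2 or more introns. In long, the share was 0.264% (49 of 18552) in replicate 1 and 1.80% (427 of 23686) in replicate 2, and in long_alt it was 1.43% (531 of 37104) and 4.18% (1116 of 26672). NT replicates lay close to each other, and those of both minigenes spread widely around them. In short_1, 9.03% of reads (2907 of 32197) in replicate 1 and 19.5% (6097 of 31323) in replicate 2 kept 2 or more introns. In short_1_alt, the share was 23.4% (6985 of 29815) and 34.5% (7545 of 21863). Every short_1 and short_1_alt library lay above every library with introns 19 and 20. As the mean ± SD of 2 replicates, the share was 1.51% ± 0.0926 in NT, 1.03% ± 1.09 in long and 2.81% ± 1.95 in long_alt, and 14.2% ± 7.38 and 29.0% ± 7.84 in short_1 and short_1_alt.

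To compare the architectures over the introns that both hold, reads were scored on introns 15 to 18 alone. On this scale 21.6% ± 10.5 of short_1 and short_1_alt reads kept 2 or more introns, against 1.72% ± 1.52 of long and long_alt reads (SD, n = 4 each). Each set of 4 libraries holds 2 replicates of 2 minigenes that differ in the allele. Here and below, the SD of such a set therefore includes the allele difference, and permutations between architectures did not keep the alleles apart. The architectures differed by 19.9 percentage points, and the groups did not overlap (p = 0.0286 by two-sided exact permutation of the libraries among 70 assignments, which is the smallest p for 4 against 4). After adjustment over the 7 comparisons of joint retention made here (Benjamini-Hochberg), p was 0.0667, above the threshold of 0.05. Between long and NT, the difference on the same scale was -0.542 points, the replicates overlapped, and 2 libraries against 2 cannot go below p = 0.333 (two-sided exact permutation test, p = 1, adjusted p = 1). Without long replicate 1 the difference was 0.127 points. If each intron were retained independently at its own share in a library, joint retention would already average 26.6% in the short minigenes. It would average 0.350% in long and long_alt, there over introns 15 to 20. The test of the architectures therefore does not separate joint retention from more frequent retention of single introns.

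**Figure D1:**
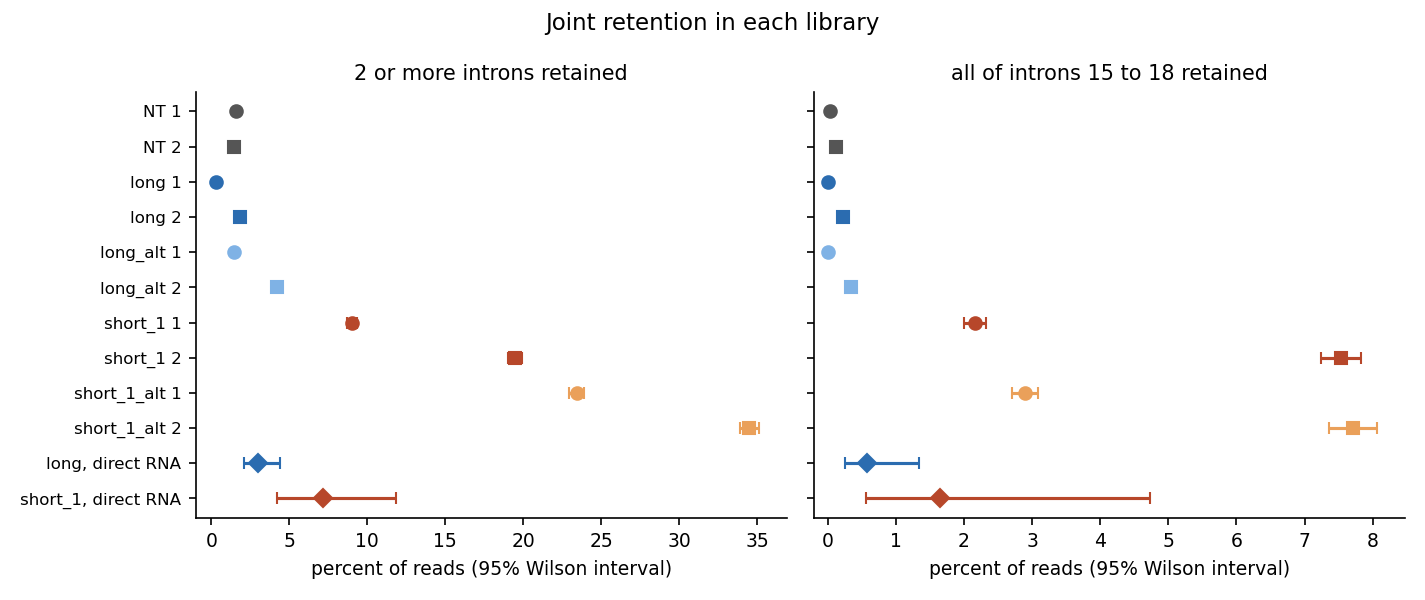
Percent of reads with 2 or more retained introns (left) and with all of introns 15 to 18 retained (right) in each RT-PCR library (circles, replicate 1, and squares, replicate 2) and in 2 direct RNA libraries (diamonds). Bars are 95% Wilson intervals, which cover counting error only. The 4 short_1 and short_1_alt libraries sit between 9.03% and 34.5% on the left, and the 6 amplicon libraries with introns 19 and 20 between 0.264% and 4.18%.

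The class next to these reads, those with exactly 1 retained intron, was the larger in all RT-PCR libraries but those of NT. Exactly 1 intron was kept in 55.4% and 52.9% of short_1 reads and in 56.7% and 47.3% of short_1_alt reads, while exactly 2 were kept in 3.79% and 5.94% of short_1 reads and in 15.8% and 16.98% of short_1_alt reads (replicates 1 and 2). In NT, exactly 1 intron was kept in 1.52% and 0.876% of reads and exactly 2 in 0.785% and 0.480%. The shares with exactly 1 and with exactly 2 were 1.11% and 0.183% in long replicate 1, 2.38% and 0.751% in long replicate 2, 3.20% and 1.09% in long_alt replicate 1, and 5.11% and 2.07% in long_alt replicate 2. Most incompletely spliced reads of the short minigenes therefore kept a single intron, whereas in NT reads with 2 or more introns made up 50.9% and 62.3% of all reads with any intron. That proportion was 19.2% and 43.1% for long, 30.9% and 45.0% for long_alt, 14.02% and 26.9% for short_1, and 29.3% and 42.2% for short_1_alt.

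Replicates were not interchangeable in this class. In the 4 minigenes, but not in NT, the library labelled replicate 2 held a larger share of jointly retained reads than the library labelled replicate 1. The labels do not say what the number stands for, and the cause was not tested.

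The number of jointly retained reads was then compared with the number expected if each intron were retained independently at its own share in the same library. Observed numbers exceeded expected numbers in the 6 libraries with introns 19 and 20, by 13.9 and 12.3 times in NT, 26.4 and 7.50 times in long, and 11.4 and 4.09 times in long_alt (replicates 1 and 2). In NT replicate 1, for example, 376 such reads stood against 27.0 expected. The long replicate 1 ratio rests on 49 reads against 1.86 expected. In the 4 short libraries the ratio was below 1, at 0.854 and 0.715 in short_1 and at 0.906 and 0.807 in short_1_alt. Without the reads that kept all of introns 15 to 18, the ratio was 1.05 and 0.951 in short_1 (mean 1.003). It was 1.04 and 0.961 in short_1_alt (mean 0.998), so the replicates of both lay on either side of 1. A total near 1 can hold a deficit of pairs beside an excess of larger sets, and is not by itself independence.

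The ratio below 1 in the short minigenes combined a deficit of pairs with an excess of larger sets. In short_1 replicate 1, 1220 reads kept exactly 2 introns against 3225 expected, 992 kept 3 against 175 expected, and 695 kept all 4 against 2.84 expected. In short_1 replicate 2, the corresponding numbers were 1860 against 7384, 1878 against 1093 and 2359 against 51.7. Both replicates thus had fewer pairs and more sets of 3 or 4 introns than independent retention gives. In short_1_alt replicate 1, 4696 reads kept exactly 2 introns against 7013 expected, 1426 kept 3 against 681, and 863 kept 4 against 17.05. In short_1_alt replicate 2, these were 3713 against 7618, 2147 against 1632 and 1685 against 96.9. Intron 18 was retained in 63.9% to 80.7% of reads in these libraries, and an intron that is so frequent leaves little room above the expected number. For the pair of introns 17 and 18, the highest ratio that could be reached was 1.57 and 1.40 in short_1 and 1.26 and 1.24 in short_1_alt, and the observed ratios were 1.52 and 1.37 and 1.23 and 1.21.

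In the libraries with introns 19 and 20, the excess was larger for 3 or more introns than for 2. NT replicate 1 held 187 reads with 2 introns (26.8 expected), 138 with 3 (0.227 expected), 27 with 4 and 24 with 5. NT replicate 2 held 131 reads with 2 introns (31.7 expected), 120 with 3 (0.324 expected), 75 with 4, 42 with 5 and 27 with all 6. Long replicate 1 held 34, 13 and 2 reads with 2, 3 and 4 introns, and none with more. Fewer than 1 read with 3 or more introns was expected in each of these 3 libraries. Long replicate 2 held 178, 110, 69, 34 and 36 reads with 2, 3, 4, 5 and 6 introns. Long_alt replicate 2 held 551, 282, 155, 80 and 48 such reads, and long_alt replicate 1 held 405, 109, 12 and 5 with 2 to 5 introns and none with 6. From 2 introns to 5, the numbers fell more slowly in replicate 2 of each condition than in replicate 1 of long and long_alt.

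**Figure D2:**
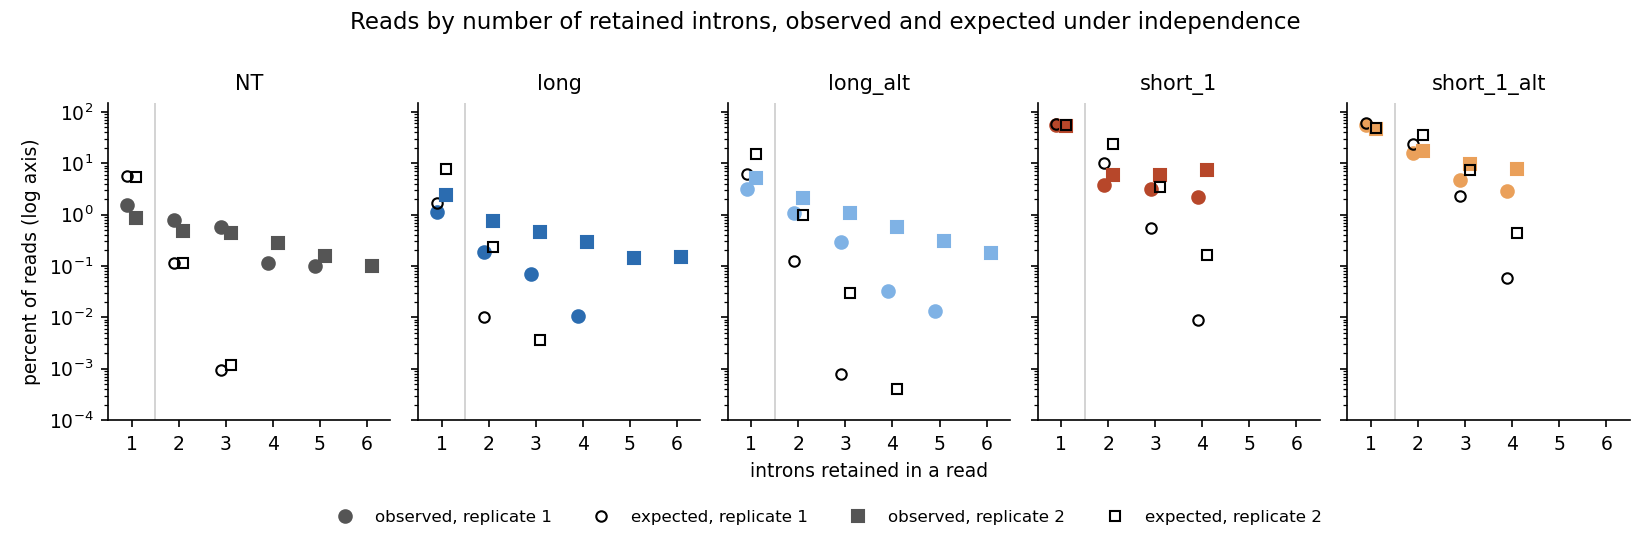
Percent of reads (log axis) that kept 1 to 6 introns, with observed shares as filled symbols and shares expected under independent retention as open symbols, for replicate 1 (circles) and replicate 2 (squares) of each condition. Observed shares of 0 and expected shares under 0.0001% are not drawn, and the grey line separates reads with 1 intron from the jointly retained reads. Open symbols drop away from the filled ones beyond 2 introns in NT, long and long_alt, and in short_1 and short_1_alt they lie above them at 2 introns and below them at 3 and 4.

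Intron 18 was part of nearly every jointly retained read in the short minigenes and of most elsewhere. It was present in 98.1% and 98.8% of them in short_1, 99.5% and 99.4% in short_1_alt, 97.1% and 93.9% in NT, 94.5% and 91.8% in long_alt, and 75.5% and 87.8% in long (replicates 1 and 2). Intron 18 was kept in 63.9% to 80.7% of all reads of the short minigenes, so independent retention would already put it in most jointly retained reads there. In short_1 replicate 1, 3403 such reads were expected, and introns 16 and 17 without intron 18 made up 54.9 of them. Shares of single introns expected under independence were not computed. Intron 17 followed, with 79.6% at the lowest in long replicate 1 and 96.4% at the highest in short_1_alt replicate 2. Intron 16 was present in 15.6% of jointly retained reads in long_alt replicate 1 and in up to 73.7% in NT replicate 2, and intron 15 in none of the 49 reads of long replicate 1 and in up to 44.6% in short_1 replicate 2. The upstream introns were thus less common in the retained set with distance from intron 18, except that intron 17 was slightly ahead of intron 18 in long replicate 1. Introns 17, 16 and 15 had the same order by their retention in all reads.

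Seen from the single introns, retention of introns 15, 16 and 17 in the short minigenes was almost always joint. Among short_1 reads that kept intron 15, 96.5% and 97.8% kept at least 1 more intron, and for intron 17 the values were 98.7% and 99.3%. Of the reads that kept intron 18, 13.9% and 26.8% kept another intron in short_1 and 29.4% and 42.5% in short_1_alt. Under independence, reads with intron 15, 16 or 17 would already keep intron 18 at its own share. That share was 63.9% and 71.6% in short_1 and 79.2% and 80.7% in short_1_alt. The difference between intron 18 and the other introns thus follows in part from how frequent intron 18 is. In long_alt, the intron 17 with the alternative allele was kept together with another intron in 39.5% and 53.9% of the reads that retained it, against 58.2% and 88.0% in long and 85.3% and 92.6% in NT. Intron 17 retained alone was therefore a larger part of its retention in long_alt than in the other conditions with introns 19 and 20, where the replicates did not overlap with those of long_alt. The number of such reads was 722 and 855 in long_alt, 28 and 47 in long and 54 and 28 in NT.

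Most jointly retained reads kept an uninterrupted run of introns. Of all jointly retained reads, 24626 (93.2%) kept introns that followed each other without an excised intron in between. Most of these reads came from the short minigenes, and a read that kept every intron is a run by definition. A share of runs expected under independence was not computed, but neighbours among pairs are set against independence below. The share was 87.5% and 89.9% for NT, 93.9% and 95.1% for long, 97.7% and 97.1% for long_alt, 88.1% and 91.0% for short_1 and 94.2% and 95.4% for short_1_alt. All 11 combinations that are possible with 4 introns occurred in the short minigenes, and 31 of the 57 that are possible with 6 introns occurred in NT, long or long_alt.

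In the short minigenes, the frequent combinations were runs that end at intron 18. In short_1, introns 15 to 18 together were kept by 695 and 2359 reads (23.9% and 38.7% of the jointly retained reads), introns 16 to 18 by 905 and 1703 reads (31.1% and 27.9%), and introns 17 and 18 by 908 and 1411 reads (31.2% and 23.1%). These 3 combinations were similar in size in replicate 1, and the complete set was the most frequent in replicate 2. In short_1_alt, introns 17 and 18 led with 4388 and 3490 reads (62.8% and 46.3%), followed by introns 16 to 18 with 1291 and 1979 reads (18.5% and 26.2%) and introns 15 to 18 with 863 and 1685 reads (12.4% and 22.3%). Runs ending at intron 18 accounted in all for 86.3% and 89.8% of jointly retained reads in short_1 and for 93.7% and 94.8% in short_1_alt. Such runs were a smaller proportion elsewhere, at 59.6% and 42.3% for NT, 42.9% and 38.6% for long, and 68.5% and 50.7% for long_alt. In the short minigenes, the main combination outside these runs was introns 16 and 18 without intron 17, with 179 and 227 reads in short_1 and 186 and 113 in short_1_alt.

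In NT, introns 17 and 18 were kept by 123 and 64 reads (32.7% and 16.2% of the jointly retained reads), introns 16 to 18 by 99 and 101 reads (26.3% and 25.6%), and introns 16 to 19 by 23 and 63 reads (6.12% and 15.9%). In long, introns 17 and 18 were kept by 13 and 84 reads (26.5% and 19.7%), introns 16 and 17 by 11 and 28 reads (22.4% and 6.56%), and introns 16 to 18 by 8 and 71 reads (16.3% and 16.6%). Long_alt was dominated by introns 17 and 18 alone, with 323 and 390 reads (60.8% and 34.9%). Introns 18 and 19 without any other were kept by 14 and 16 reads in NT, 7 and 34 in long and 49 and 64 in long_alt. The neighbouring pairs at the ends were rare, with introns 15 and 16 alone in 0 and 0 reads of NT, 0 and 15 of long and 0 and 15 of long_alt, and introns 19 and 20 alone in 0 and 0, 0 and 5, and 1 and 10 reads.

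**Figure D3:**
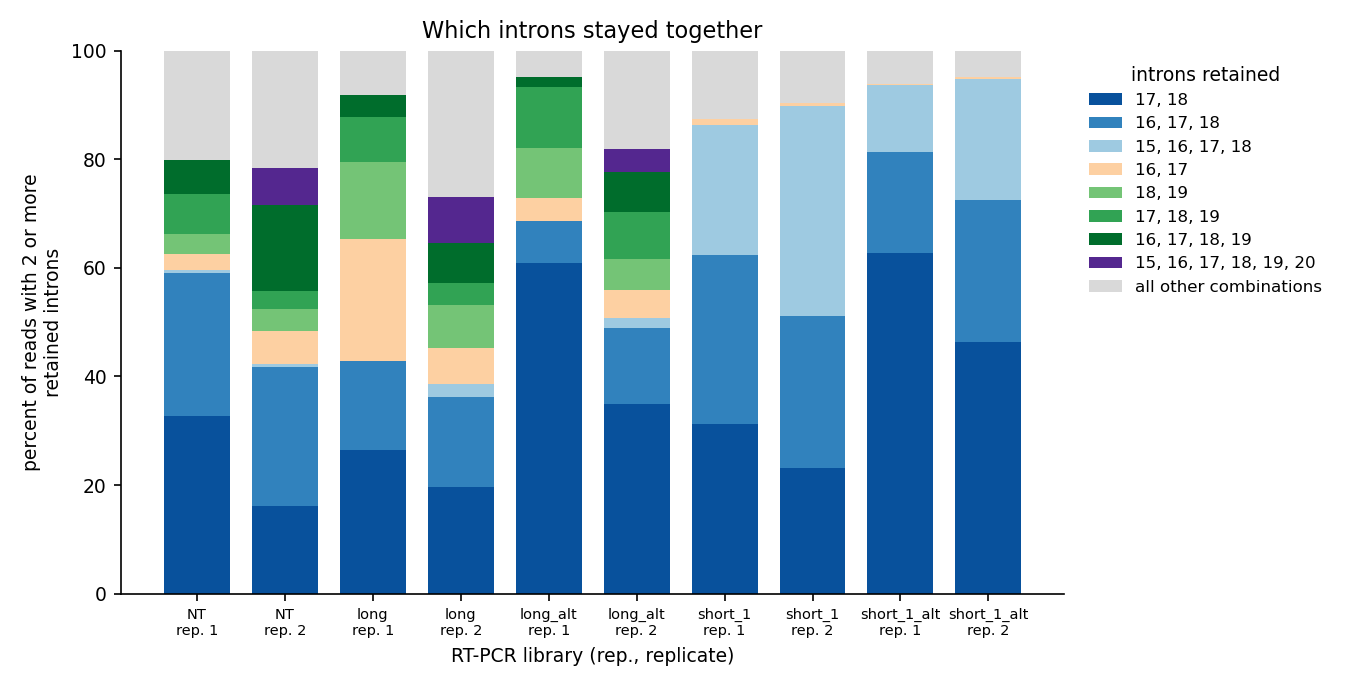
Share of the jointly retained reads of each RT-PCR library that kept a given combination of introns, as stacked bars that add up to 100%. Blue segments are runs that end at intron 18, and the light orange segment is introns 16 and 17 alone. Green and purple segments include intron 19, and grey holds the remaining combinations. Introns 17 and 18 alone make up 60.8% and 62.8% in replicate 1 of long_alt and short_1_alt and 16.2% to 46.3% in the other libraries.

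A read could also be followed upstream from intron 18. Of the reads that kept intron 18, intron 17 was kept in 12.3% and 24.5% in short_1, 27.9% and 41.0% in short_1_alt, 48.9% and 63.4% in NT, 16.6% and 42.4% in long and 50.6% and 67.5% in long_alt. Once introns 17 and 18 were both kept, intron 16 was kept in 63.4% and 73.8% of reads in short_1, 32.7% and 50.7% in short_1_alt, 49.3% and 74.5% in NT, 37.0% and 59.4% in long and 12.4% and 41.8% in long_alt. Once introns 16 to 18 were kept, intron 15 was kept as well in 43.4% and 58.1% in short_1 and 40.1% and 46.0% in short_1_alt, and in 6.04% and 14.5% in NT, 0% and 28.5% in long and 0% and 23.1% in long_alt. The values of 0% rest on 10 reads in long and 55 in long_alt. The 4 short libraries lay above the other 6 at the last step. At the step to intron 17, both replicates of each alternative-allele minigene lay above both replicates of the reference minigene of the same architecture. At the step to intron 16, short_1_alt lay below short_1 without overlap, and long_alt and long overlapped.

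**Figure D4:**
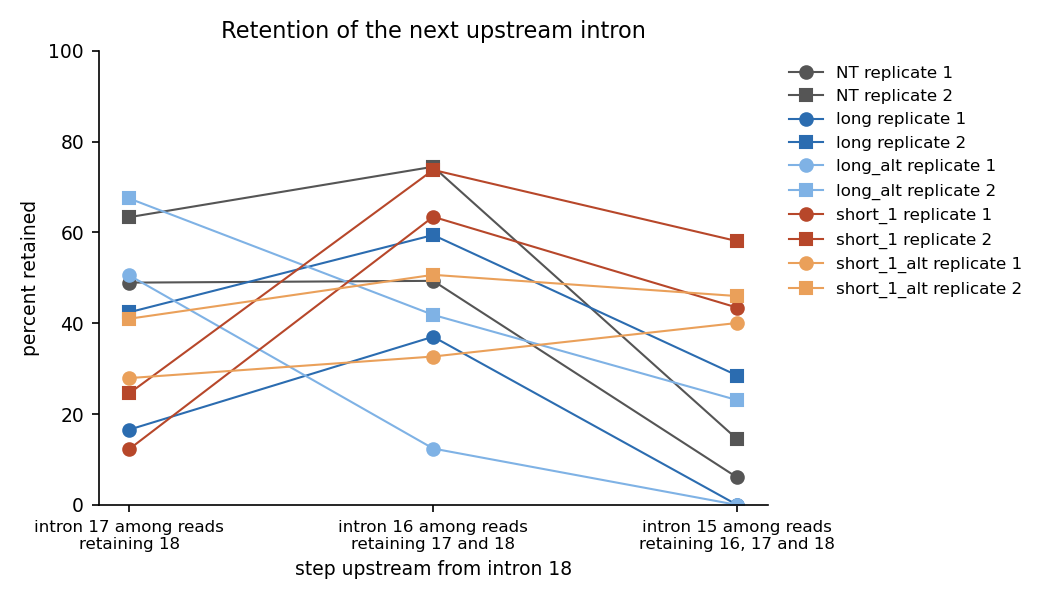
Percent of reads that kept the next upstream intron, given that the introns downstream of it up to intron 18 were kept, for each RT-PCR library (circles, replicate 1, and squares, replicate 2). Intron 15 was kept in 40.1% to 58.1% of short_1 and short_1_alt reads with introns 16 to 18 retained, and in 0% to 28.5% in the other libraries.

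Neighbourhood was examined among reads that kept exactly 2 of introns 15 to 18, because the selection of reads does not fix which 2 these are. The 2 introns were neighbours in 81.2% and 80.5% of such reads in NT, 93.3% and 94.4% for long, 98.6% and 98.4% for long_alt, 78.0% and 78.9% for short_1 and 94.0% and 94.7% for short_1_alt (replicates 1 and 2). Independent retention at the shares of each library would give 66.2% and 61.4% for NT, 61.5% and 56.0% for long, 89.5% and 75.2% for long_alt, 49.3% and 46.4% for short_1 and 69.3% and 62.3% for short_1_alt. All 10 libraries exceeded this expectation. The mean was 86.4% ± 9.20 in the short minigenes and 96.2% ± 2.70 in the long minigenes (SD, n = 4 each), a difference of -9.77 points with overlapping groups that did not pass the test (two-sided exact permutation test, p = 0.143, adjusted p = 0.2). In NT, long and long_alt scored over all 6 introns, 79.1% to 97.8% of reads with exactly 2 retained introns kept neighbours.

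Each pair of introns was then compared within a library. The observed number of reads that kept both was above the expected number in 104 of the 114 combinations of pair and library, and the other 10 held no read. The expected number was under 1 read in 41 of the 114, so that single ratios there have little precision. The log2 odds ratio, which unlike the ratio of numbers has no ceiling set by a frequent intron, was computed with 0.5 added to each of the 4 cells. For introns 17 and 18 it was 8.40 and 9.78 for NT, 6.51 and 7.75 for long, 5.60 and 5.78 for long_alt, 4.34 and 4.90 for short_1 and 3.62 and 3.96 for short_1_alt. All values were far above 0, the value of independence, with NT highest and short_1_alt lowest.

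For this pair, the log2 odds ratio averaged 4.21 ± 0.551 in the short minigenes and 6.41 ± 0.976 in the long minigenes (SD, n = 4 each). The difference was -2.20 on the log2 scale without overlap (two-sided exact permutation test, p = 0.0286 and adjusted p = 0.0667, where no smaller p is possible). The difference thus missed the threshold after adjustment. In plain shares, intron 18 was kept in 97.0% and 98.3% of the short_1 reads that kept intron 17 and in 61.0% and 65.8% of those that excised it. In long these shares were 40.3% and 80.1% against 0.736% and 1.82%.

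Among introns 15 to 18, the median log2 odds ratio of neighbouring pairs was above that of pairs with 1 intron between them in 10 of 10 libraries, with 7.21 against 4.71 in short_1 replicate 1 and 8.40 against 8.02 in NT replicate 1 as examples. The pair at the ends, introns 15 and 18, had values of 9.65 and 10.4 for NT, 2.73 and 5.26 for long, 0.41 and 4.98 for long_alt, 3.24 and 3.54 for short_1 and 2.55 and 3.17 for short_1_alt. It was lower than the median of the neighbouring pairs in all libraries but those of NT. There, 10 of 10 and 36 of 37 reads that kept intron 15 also kept intron 18, so that the NT values depend on the 0.5 added. The values of long replicate 1 and long_alt replicate 1 come from no read that kept both introns and reflect the 0.5 added to each cell. Over introns 15 to 20, there was no steady fall beyond the neighbours. In NT replicate 2, the medians were 9.78 for neighbours, 9.52, 9.21 and 9.56 with 1, 2 and 3 introns between, and 10.2 for introns 15 and 20. In long_alt replicate 2, the median was 7.15 for neighbours, 5.33 with 2 introns between and 6.18 for introns 15 and 20. These libraries held 27 and 48 reads with all 6 introns kept, which count in every pair. NT replicate 1 held no such read. Its medians were 9.09 for neighbours, 7.92, 6.93 and 7.68 with 1, 2 and 3 introns between, and 6.72 for introns 15 and 20, on 1 read. In replicate 1 of long and long_alt, no read kept both introns 15 and 20.

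In the short minigenes, much of the association between distant introns lay in reads that also kept the introns between them. When only reads with every other intron excised were used, introns 15 and 18 had log2 odds ratios of 0.83 and 0.48 in short_1 and 0.13 and -0.04 in short_1_alt, near 0 although 89, 165, 96 and 80 reads kept exactly this pair. Introns 16 and 18 had 1.42 and 1.09 in short_1 and 0.61 and 0.45 in short_1_alt. Introns 17 and 18 still had 4.13 and 4.20 in short_1 and 3.31 and 3.29 in short_1_alt, and introns 16 and 17 had 8.08 and 7.11 and 4.08 and 4.30. With every other intron excised, introns 16 and 18 had 4.14 and 2.53 in long and 2.83 and 2.53 in long_alt. Introns 15 and 18 had 3.09 and 1.57 in long and 1.92 and 1.40 in long_alt, on 0 or 1 reads with the pair alone. In NT, the values with every other intron excised stayed between 5.94 and 8.81 for all pairs of introns 15 to 18, but the 3 pairs with intron 15 rest there on 0 or 1 reads with the pair alone.

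**Figure D5:**
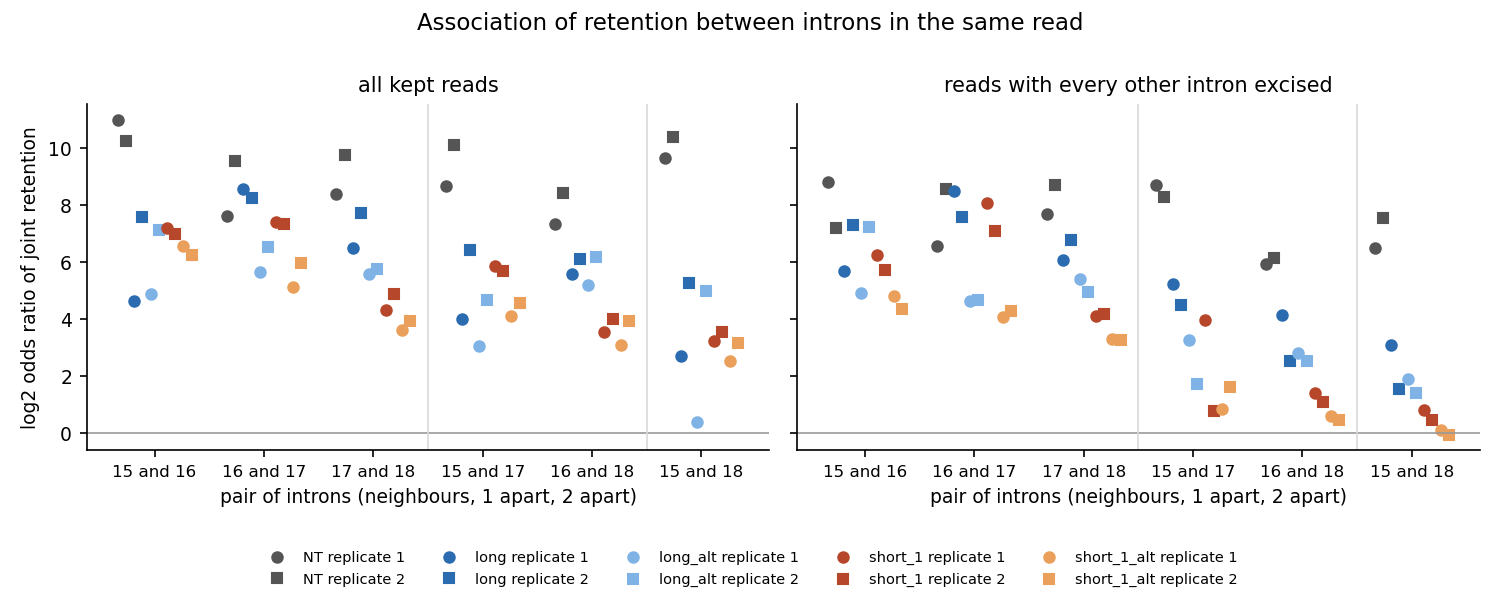
Log2 odds ratio of joint retention for the 6 pairs of introns 15 to 18 in each RT-PCR library (circles, replicate 1, and squares, replicate 2), over all reads (left) and over reads with every other intron excised (right), with 0.5 added to each cell. The line at 0 marks independence. On the right, introns 15 and 18 fall to between -0.04 and 0.83 in the 4 short libraries, and introns 17 and 18 stay between 3.29 and 4.20.

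Introns 19 and 20 joined the retained set in NT, long and long_alt. Intron 19 was kept in 26.1% and 42.3% of jointly retained reads in NT, 30.6% and 46.8% in long and 24.9% and 39.9% in long_alt, and intron 20 in 8.24% and 20.3%, 2.04% and 26.9%, and 3.58% and 17.6%. Of the reads that kept intron 19, 100% and 98.8% in NT, 63.6% and 92.4% in long and 87.9% and 93.1% in long_alt also kept intron 18. The reverse share was smaller, since intron 19 was kept in 15.9% and 32.6% of NT reads, 8.59% and 26.4% of long reads and 15.0% and 31.4% of long_alt reads that kept intron 18. Introns 18 and 19 kept together in NT, in 98 and 167 reads, compared with 2.54 and 3.18 expected. The log2 odds ratio of this pair was 13.1 and 12.3 in NT, 7.71 and 8.97 in long and 8.43 and 8.47 in long_alt. Intron 19 was kept without intron 18 by 0 reads in NT replicate 1 and by 2 in NT replicate 2, so that the NT values depend on the 0.5 added to each cell.

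Complete retention of introns 15 to 18 left no intron removed in the short minigenes, whereas introns 19 and 20 could be excised in such reads of NT, long and long_alt. All of introns 15 to 18 were kept in 2.16% (695 reads) and 7.53% (2359 reads) of short_1 reads and in 2.89% (863 reads) and 7.71% (1685 reads) of short_1_alt reads. They were kept in 0.0378% (9 reads) and 0.128% (35 reads) in NT, in 0% and 0.224% (53 reads) in long and in 0% and 0.337% (90 reads) in long_alt. With 0 of 18552 reads, a share of up to 0.0162% remains possible in long replicate 1, and with 0 of 37104 reads, up to 0.00809% in long_alt replicate 1 (3 counts). Over 4 libraries each, the mean was 5.07% ± 2.96 in the short minigenes and 0.140% ± 0.169 in the long minigenes (SD). The difference of 4.93 points had no overlap (two-sided exact permutation test, p = 0.0286 and adjusted p = 0.0667, where no smaller p is possible), and it too missed the threshold after adjustment.

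All 6 introns were kept together in 27 reads of NT replicate 2, 36 of long replicate 2 and 48 of long_alt replicate 2, or 0.0990%, 0.152% and 0.180% of reads, and in 0 reads of replicate 1 of the same conditions. A share of up to 0.0126% in NT replicate 1, 0.0162% in long replicate 1 and 0.00809% in long_alt replicate 1 remains possible (3 counts). The replicates thus differed beyond counting error in this combination. A read with no intron removed has the same sequence as the DNA it was transcribed from, and the counts alone do not separate them. The RNA had been digested with DNase ahead of reverse transcription. Whether DNA contributed was not tested in the amplicons.

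The alternative allele was compared within each architecture on the scale of introns 15 to 18. Joint retention in short_1_alt exceeded that in short_1 by 14.7 points, with both short_1_alt replicates above both short_1 replicates (two-sided exact permutation test, p = 0.333, as small as 2 libraries against 2 can give). In long_alt it differed from long by 1.66 points, and the replicates overlapped (two-sided exact permutation test, p = 0.667). With labels exchanged within each architecture, the alternative-allele libraries exceeded the reference libraries by 8.19 points in joint retention (p = 0.111 and adjusted p = 0.194 by two-sided exact permutation among 36 assignments), where the smallest p possible is 0.0556. The allele differences of the 2 architectures differed by 13.1 points (two-sided exact permutation test, p = 0.278). Complete retention of introns 15 to 18 differed by 0.256 points between the alleles, with overlap (two-sided exact permutation test, p = 0.556, adjusted p = 0.648), and its sign changed without either long library or without short_1_alt replicate 2. The larger joint retention of short_1_alt lay mostly in introns 17 and 18 alone, at 14.7% and 15.96% of reads against 2.82% and 4.505% in short_1. Introns 16 to 18 alone were kept in 4.33% and 9.05% of its reads against 2.81% and 5.44%, and these replicates overlapped.

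Direct RNA sequencing, which reads polyadenylated RNA without PCR, had not been used to choose the reads above and gave 1 library per minigene, so differences between minigenes have no replicate check. In the long minigene, 26 of 865 reads (3.01%, 95% Wilson interval 2.06% to 4.37%) kept 2 or more introns, 5.07 times the number expected under independence. In short_1, 13 of 182 reads did (7.14%, 4.22% to 11.8%), 0.723 times the expected number. The intervals of long, scored over 6 introns, and of short_1, scored over 4, overlapped only between 4.22% and 4.37%. Such an overlap does not show that the shares are equal, and their difference was not tested. On introns 15 to 18 alone, 2.89% of long reads kept 2 or more introns. The interval of long lay above the share in long replicate 2 of the amplicons, and that of short_1 covered the amplicon share of replicate 1 but not of replicate 2.

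The same kinds of reads appeared without PCR. Intron 18 was present in all 26 jointly retained reads of long and in all 13 of short_1. It was kept in 5.43% and 70.9% of all reads of these minigenes. In long, introns 17 and 18 alone were kept by 6 reads, introns 16 to 18 by 5, and all 6 introns by 5. In short_1, introns 16 to 18 were kept by 7 reads, introns 15 to 18 by 3 and introns 17 and 18 by 2. All of introns 15 to 18 were kept in 0.578% (0.247% to 1.35%) of long reads and 1.65% (0.562% to 4.73%) of short_1 reads, with overlapping intervals. Uninterrupted runs made up 80.8% and 92.3% of these small sets.

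Direct RNA of the altered minigenes extended the range. The minigene without introns 19 and 20 (Δint19+20), in which the deletions appear as excised introns, kept 2 or more introns in 24 of 152 reads (15.8%, 10.8% to 22.4%). Another 40.9% of its reads had a skipped splice site, and with these in the denominator the share was 9.30% (24 of 258). With the first 72 nt of intron 19 added to short_1, 242 of 1146 reads (21.1%, 18.9% to 23.6%) kept 2 or more of introns 15 to 18, and with the 5′ splice site of that segment mutated, 64 of 179 reads (35.8%, 29.1% to 43.0%). Reads of these 2 minigenes had to list introns 15 to 19, with the status at intron 19 left unused. Their selection thus differs from that of short_1. Introns 16 to 18 were the leading combination in short + 72 nt (139 reads) and in its mutated form (33 reads). In the long minigene with a mutated 5′ splice site of intron 19 (mut 5′SS), 90.2% of reads had a skipped splice site. Only 94 of its 1546 reads had every intron excised or retained, and all 94 kept introns 18 and 19 together. With this splice site mutated and skipped reads left out, retention of intron 19 is largely set by the construct and the selection. The number expected under independence was also 94, so no association of the 2 introns can be read from these reads. Introns 18 and 19 alone were kept by 37 of these reads, and all 6 introns by 11.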

How the data were processed

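RT-PCR amplicons (10 libraries) and direct RNA (6 libraries) of *EIF4G2* were sequenced on nanopores by the authors, who basecalled the reads, aligned them to GRCh38 with minimap2 in its spliced mode, kept uniquely mapped reads and read the status of each intron (excised, retained, skipped or undetermined) from the alignment. They deposited the raw count of reads for each combination of introns and statuses, without normalization and with no choice of reads that span the amplicon. Introns are numbered here along the transcript, which is 21 minus the number in the deposited counts.

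Reads that listed exactly the expected introns, all excised or retained, were kept. Expected numbers multiply the shares of single introns within a library. Comparisons between groups used exact, two-sided permutation of library values, with Benjamini-Hochberg adjustment over 7 comparisons. Single shares have 95% Wilson intervals. Named combinations were the 3 most frequent of any library, all neighbouring pairs and those that retained every intron. The pair of introns 15 and 18 alone was added once its values had been seen. The members, comparisons and lists were chosen with earlier results of these data known. Alternatives were other choices of reads (skipped, undetermined, beyond the expected introns, or with no intron removed), a minimum of 2 or 10 reads per combination, all 6 introns scored, log odds, no value added to the odds ratio, a replicate block and each library left out. The counting was tested on simulated data. Python 3.11.15, SciPy 1.17.1, pandas 2.3.3 and matplotlib 3.10.9 were used. Splice sites were taken from the reference genome, and the plasmids and the sequence of the alternative allele were not analysed here.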

Additional observations from a re-analysis of the deposited data

How the results depend on the processing

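With 2 libraries per condition, no comparison passed the threshold of 0.05 after adjustment in the first place. Before adjustment, the differences between the short and long minigenes in joint retention, in complete retention of introns 15 to 18 and in the log2 odds ratio of introns 17 and 18 were past it, and the alternatives that treat reads differently kept them there. Labels exchanged only among libraries with the same number (replicate block) left the differences at 19.9 points, 4.93 points and -2.20 with exact permutation p = 0.0556 each, the smallest p of that design, and changed no other call. Over 16 combinations of introns 15 to 18, same-numbered libraries of the minigenes mostly deviated together, with correlations of 0.186 to 0.938 in 5 of 6 pairs of minigenes and -0.0291 for long with short_1_alt, whereas those between NT and the minigenes ran from -0.875 to 0.384. Since not every correlation was over 0.1 and the labels do not say what a number marks, the numbers are not taken as pairs. With any single library left out, joint retention differed by 15.6 to 24.1 points (exact permutation p from 0.0286 to 0.0571), complete retention by 4.05 to 5.90 points (p from 0.0286 to 0.0857) and the log2 odds ratio by -2.47 to -1.75. The p exceeded 0.05 when any long or long_alt library was left out in joint and in complete retention.

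The share of neighbours among pairs differed by -13.6 points, with exact permutation p = 0.0286, when combinations with fewer than 10 reads were left out, and by -12.6 to -6.96 points with 1 library left out. Joint retention by allele ranged from 1.94 to 13.02 points with 1 library left out. Complete retention by allele ranged from -1.40 to 1.94 points, and its sign changed without long replicate 1 (-0.570), long replicate 2 (-0.495) or short_1_alt replicate 2 (-1.40). Joint retention in long minus NT ranged from -1.21 to 0.127 points and changed sign without long replicate 1. Without reads that kept all of introns 15 to 18, mean observed over expected numbers were 1.003 in short_1, on the other side of 1, 0.998 in short_1_alt and 14.9 in NT, and with a minimum of 10 reads the NT value was 14.4. In that first setting, the log2 odds ratio of introns 17 and 18 in the short minigenes was still 3.74 ± 0.304 (SD). The causes were not tested. The values of long replicate 1 rest on 49 jointly retained reads, the fewest among the RT-PCR libraries. An alternative chosen after seeing the data counted skipped splice sites in direct RNA as not retained, and joint retention was then 9.30% in Δint19+20 and 6.38% (95 of 1488 reads) in mut 5′SS, whereas the other 4 libraries stayed within their intervals.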

Other observations

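Reads outside the selection also kept several introns. In the RT-PCR libraries, 1 to 25 reads per library kept 2 or more introns and had a skipped splice site at another intron, the most in short_1_alt replicate 2. Between 6 and 391 reads per library kept 2 or more introns but listed another set of introns than the expected one, with 332 and 391 in short_1_alt, 146 and 287 in short_1 and 6 and 42 in long. The mean retained length per jointly retained read was 481 and 532 nt in NT, 397 and 514 nt in long, 437 and 496 nt in long_alt, 492 and 522 nt in short_1 and 459 and 486 nt in short_1_alt (replicates 1 and 2).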
